A study of Mus musculus with 8 samples.

Results

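Basement membrane genes were followed in articular cartilage of WT and Oscar-/- mice after joint injury. The 10 genes were taken by name and by mouse gene identifier, not by their measured values. They were Col4a1 and Col4a2 (collagen IV), Lama4, Lamb1 and Lamc1 (laminins), Nid1 and Nid2 (nidogens), Hspg2 (perlecan), and Col15a1 and Col18a1 (collagens XV and XVIII). The deposited tables hold 52636 genes, and all 10 were among the 12538 protein-coding genes that passed the expression filter and were tested.

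The study asked which genes depend on OSCAR, a collagen receptor, in osteoarthritis induced by surgical destabilization of the medial meniscus (DMM). Both genotypes received sham or DMM surgery and were examined 2 or 4 weeks later, which gives 8 conditions with 1 RNA-seq library each. All mice were males of the C57BL/6 strain, labelled as 10 weeks old. WT mice were purchased, and Oscar-/- mice came from a separate line with a germline deletion of Oscar, with no other allele or agent named in the labels. RNA of 10 cartilages was pooled for each library, and no pool was repeated. The p-values below therefore rest on the spread that the 2 time points left after an additive term for week, and this spread may be technical.

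Oscar gave 48, 118, 42 and 94 expected counts in the 4 WT libraries and 0 in each Oscar-/- library, which allows up to 3 counts in each. A library held 13189181 to 18533609 expected counts in all. Hemoglobin transcripts took 26.5% to 37.7% of TPM (a share of all transcripts, scaled for transcript length). The cartilage marker Col2a1 was present in every library at 59.5 to 209 TPM, beside these red cell transcripts. The bone marker Bglap was at 1120 to 2348 TPM, and neutrophil markers summed to 67420 to 109300 TPM. The study's methods name knee joint tissues as the source of RNA and articular cartilages as the pools. Cartilage thus names samples here that also held transcripts of bone and blood cells. The lane numbers given with the tables were 5 for all 2-week libraries, 3 for WT and 1 for Oscar-/- at 4 weeks. Week, and genotype at 4 weeks, cannot be told apart from lane, whereas DMM and sham libraries of a genotype and week shared a lane.

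A basement membrane is a thin sheet of matrix that lies under endothelium and epithelium and around muscle, fat and nerve cells. Laminin trimers and collagen IV form separate networks in it, and nidogens and the heparan sulfate proteoglycan perlecan link both. Most cartilage lacks vessels and has no continuous basement membrane, but chondrocytes make perlecan, nidogens and some of the other components in the matrix right around the cell.

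Col4a1 and Col4a2 encode the α1 and α2 chains that wind into the most widespread collagen IV trimer, and in mouse they lie head to head on chromosome 8. In GENCODE on GRCm38, Col4a1 runs on the minus strand from 11198423 to 11312826 and Col4a2 on the plus strand from 11312805 to 11449287, so that the annotated genes overlap by 22 bases at their starts. The 2 promoter windows of RefSeq (GRCm38.p6), each 250 bases before to 50 after the start, are printed because both chains share this stretch of DNA and were read together in every library. Col4a1 is chr8:11312777-11313076 on the minus strand and Col4a2 is chr8:11312555-11312854 on the plus strand, both written 5′ to 3′. Capitals mark the 78 bases that both windows hold, read on opposite strands.
Col4a1: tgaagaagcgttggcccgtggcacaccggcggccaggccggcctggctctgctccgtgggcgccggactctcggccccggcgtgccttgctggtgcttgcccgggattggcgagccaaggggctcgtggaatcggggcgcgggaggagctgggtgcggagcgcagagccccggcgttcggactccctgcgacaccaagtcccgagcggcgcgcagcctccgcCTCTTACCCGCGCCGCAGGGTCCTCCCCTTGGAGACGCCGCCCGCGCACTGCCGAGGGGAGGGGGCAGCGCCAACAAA
Col4a2: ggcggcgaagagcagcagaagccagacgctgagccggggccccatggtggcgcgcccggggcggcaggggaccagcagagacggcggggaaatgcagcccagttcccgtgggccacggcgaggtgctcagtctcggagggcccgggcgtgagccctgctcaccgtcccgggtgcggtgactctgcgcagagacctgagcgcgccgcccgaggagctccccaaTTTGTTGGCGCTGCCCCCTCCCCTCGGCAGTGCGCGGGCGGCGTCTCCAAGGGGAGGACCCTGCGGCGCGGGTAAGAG
The GC content was 74.0% in the Col4a1 window and 73.7% in the Col4a2 window, against a median of 52.7% over 32851 windows. Both strands were searched for the letters CCAAT, for GGGCGG, known from GC boxes, and for TATAAA, known from core promoters, and each motif was counted whether or not its letters overlapped another match. GGGCGG occurred 1 time in the shared stretch. The CCAAT match of the Col4a1 window lay outside it, and that of the Col4a2 window ended on its first base. RefSeq windows were found for 7 of the 10 genes (8 windows, since Col18a1 has 2). Of these 8, 6 held GGGCGG, 5 held CCAAT and 0 held TATAAA, against 35.7%, 37.4% and 13.6% of all windows. These matches are letters in a window, not measured binding sites.

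After DMM surgery all 10 basement membrane genes rose in WT cartilage, where 4.36% of all genes were called higher. The median rise of the 10 was 1.26 on the log2 scale, and Col18a1 rose most (4.07-fold). In Oscar-/- cartilage the median DMM difference was 0.18, and none of the 10 passed the test, where 0.112% of all genes passed in either direction. The difference between both responses passed the test for 8 of 10 genes, the exceptions being the nidogens, and 3.83% of all genes were called lower. The sham libraries were not alike either. All 10 genes were higher in Oscar-/- than in WT sham cartilage at both times, by a median of 0.64 in the fit. Of them 3 passed the test, where 1.99% of all genes were called higher.

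**Figure D1:**
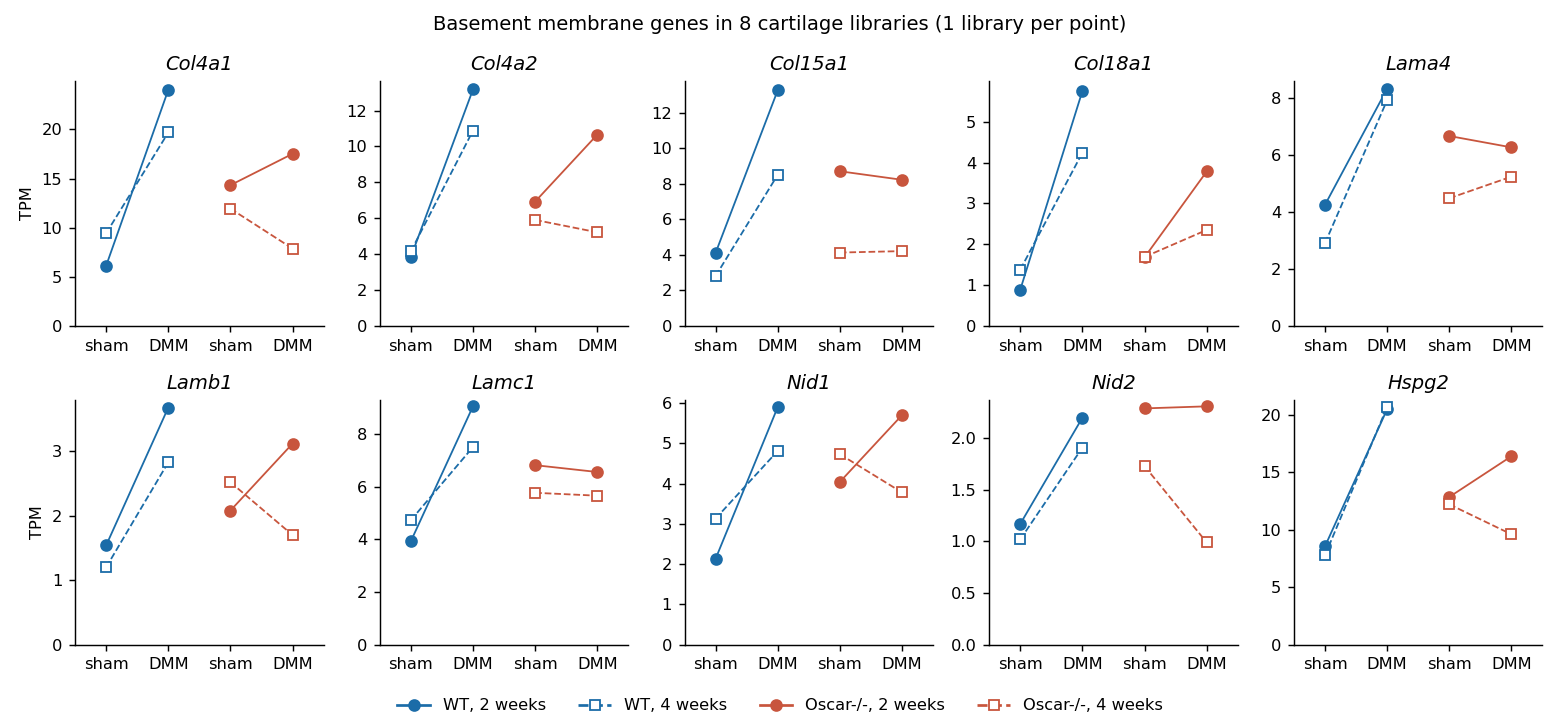
TPM of each gene (y axis, from 0) after sham and DMM surgery in WT (blue) and Oscar-/- (red) libraries at 2 weeks (filled circles, solid lines) and 4 weeks (open squares, dashed lines), 1 library per point. In WT both DMM points lie above both sham points for all 10 genes, from 0.89 to 5.75 TPM for Col18a1 at 2 weeks, while the Oscar-/- lines are flatter.

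Col4a1 had one of the 2 highest levels of the group in every library, beside Hspg2. At 2 weeks Col4a1 stood at 6.14 TPM in sham-operated and 24.0 TPM in DMM-operated WT cartilage, while Oscar-/- gave 14.3 and 17.5 TPM. At 4 weeks the sham and DMM levels were 9.44 and 19.7 TPM in WT, with 11.9 and 7.88 TPM in Oscar-/-. Both WT DMM libraries were thus above the 6 others in TPM, and at 4 weeks the Oscar-/- DMM library was the lowest in that unit. On TMM CPM (counts scaled to library size with a factor that centres the bulk of genes), the Oscar-/- DMM library of 2 weeks, at 114, stood between the WT DMM libraries of 2 weeks (140.2) and 4 weeks (94.1). At 4 weeks the Oscar-/- DMM library (51.9) was above WT sham (37.1) in TMM CPM, and the latter was the lowest of the 8. In edgeR's quasi-likelihood test with Benjamini-Hochberg adjustment over all genes, Col4a1 rose 2.94-fold with DMM in WT (log2 1.55 ± 0.18 SE, adjusted p = 0.000852). Its DMM difference in Oscar-/- was 0.27 ± 0.17 (edgeR adjusted p = 0.583), and the difference between genotypes was -1.28 ± 0.25 (adjusted p = 0.0225).

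Col4a2 was lower than Col4a1 per length in every library. After 2 weeks its sham and DMM levels were 3.85 and 13.2 TPM in WT, compared with 6.93 and 10.7 TPM in Oscar-/-. After 4 weeks they were 4.16 and 10.9 TPM in WT, while Oscar-/- gave 5.91 and 5.22 TPM. WT sham was lowest and WT DMM highest in TPM at both times. Col4a1 had this order at 2 weeks, but at 4 weeks its lowest TPM was in Oscar-/- DMM. Col4a2 rose 2.62-fold in WT (log2 1.39 ± 0.15 SE, edgeR adjusted p = 0.000634), with 0.38 ± 0.15 in Oscar-/- (adjusted p = 0.351) and a difference of -1.01 ± 0.21 (adjusted p = 0.0271). The ratio of Col4a1 to Col4a2 stayed between 1.51 and 2.27 in TPM and between 1.15 and 1.54 in counts over the 8 libraries, so the chains moved nearly in step. Reads in the 22 shared bases can be told apart by strand only, and the strand setting of the counting is not given in the sources used here.

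The tissue-restricted chains Col4a3, Col4a4, Col4a5 and Col4a6, known from kidney and other epithelial basement membranes, were all below the filter. Their summed level was 0.27 to 0.55 TPM per library, and the highest single value was 0.32 TPM, for Col4a5 in Oscar-/- sham at 4 weeks. Collagen IV transcripts in this tissue were thus almost wholly those of the α1 and α2 chains.

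The laminin members were Lama4, Lamb1 and Lamc1, whose products join as the α4, β1 and γ1 chains of laminin 411, a form known from vessel walls. Lamc1, the γ chain shared by most laminins, went from 3.93 TPM after sham to 9.06 after DMM in WT at 2 weeks, beside 6.82 and 6.56 TPM in Oscar-/-. The 4-week pairs were 4.73 and 7.51 TPM in WT, with 5.77 and 5.66 TPM in Oscar-/-. Sham and DMM libraries of Oscar-/- were close to each other at either time. Both WT DMM libraries were above the 6 others in TPM, whereas in TMM CPM WT DMM of 4 weeks (26.9) was below the Oscar-/- sham (28.4) and DMM (28.9) libraries of 2 weeks. Lamc1 rose 1.87-fold in WT (log2 0.90 ± 0.11 SE, edgeR adjusted p = 0.00126), against -0.04 ± 0.11 in Oscar-/- (adjusted p = 0.915), and the difference was -0.94 ± 0.16 (adjusted p = 0.0147).

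Lama4, the α chain, had sham and DMM levels of 4.26 and 8.34 TPM in WT at 2 weeks, compared with 6.68 and 6.28 TPM in Oscar-/-. At 4 weeks the WT pair was 2.91 and 7.94 TPM, and the Oscar-/- pair 4.49 and 5.25 TPM. The WT sham libraries were the lowest in TPM and TMM CPM. The WT DMM libraries were the highest in TPM, but in TMM CPM WT DMM of 4 weeks (16.6) was below Oscar-/- DMM of 2 weeks (19.9). Lama4 rose 2.13-fold in WT (log2 1.09 ± 0.14 SE, edgeR adjusted p = 0.00154), with 0.09 ± 0.14 in Oscar-/- (adjusted p = 0.837) and a difference of -1.0 ± 0.2 (adjusted p = 0.0245).

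Lamb1, the β chain, had the lowest TPM of the 3 laminins but not the fewest counts in every library. Sham and DMM levels of 2 weeks were 1.54 and 3.68 TPM in WT, while Oscar-/- gave 2.08 and 3.12 TPM. Those of 4 weeks were 1.2 and 2.83 TPM in WT, with 2.52 and 1.70 TPM in Oscar-/-. The Oscar-/- values of 4 weeks depended on the unit. RSEM weighted the Lamb1 transcripts to a length of 4076 bases in the sham library and 5741 in the DMM library, so that 145 and 187 expected counts became 2.52 and 1.70 TPM. On TMM CPM the same libraries stood at 10.4 and 11. In the count-based test Lamb1 rose 2.54-fold in WT (log2 1.35 ± 0.17 SE, edgeR adjusted p = 0.00127), with 0.38 ± 0.16 in Oscar-/- (adjusted p = 0.396) and a difference of -0.96 ± 0.23 (adjusted p = 0.0411).

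Of 10 other laminin and netrin chains, 5 passed the filter, and none was called higher with DMM in WT, although Lama5, Lamb2 and Ntn1 had estimates above 0. In the counts of listed genes below, a gene rose if edgeR called it higher. Lamb2, the β2 chain, was the most abundant at 6.13 to 12.3 TPM, with a DMM difference of 0.31 in WT (edgeR adjusted p = 0.167). Lama5 was at 2.07 to 4.89 TPM (0.63, adjusted p = 0.0783), Lamb3 at 0.61 to 2.18 TPM (-0.37, adjusted p = 0.462), Ntn1 at 1.36 to 3.44 TPM (0.32, adjusted p = 0.229) and Ntn4 at 5.84 to 11.1 TPM (-0.28, adjusted p = 0.295). Lamb2 and Ntn1 nevertheless passed the test of the difference between genotypes, at -0.87 (adjusted p = 0.0233) and -1.11 (adjusted p = 0.0196). Both were also higher in Oscar-/- than in WT after sham surgery, by 0.59 and 0.80 on the log2 scale (edgeR adjusted p = 0.0350 and 0.0210).

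The nidogens, which bridge laminin and collagen IV, did not pass the test of the difference between genotypes. At 2 weeks Nid1 had 2.13 TPM in sham-operated and 5.90 TPM in DMM-operated WT cartilage, with 4.04 and 5.70 TPM in Oscar-/-. At 4 weeks it had 3.13 and 4.81 TPM in WT, compared with 4.73 and 3.78 TPM in Oscar-/-. The groups overlapped except that both WT sham libraries were the lowest. Nid1 rose 1.73-fold in WT (log2 0.79 ± 0.15 SE, edgeR adjusted p = 0.0118), with 0.29 ± 0.15 in Oscar-/- (adjusted p = 0.492), and the difference was -0.51 ± 0.21 (adjusted p = 0.167).

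Nid2 had the fewest reads, with 59 to 173 expected counts. Sham and DMM gave 1.17 and 2.20 TPM in WT at 2 weeks, while Oscar-/- gave 2.29 and 2.31 TPM. The 4-week levels were 1.02 and 1.91 TPM in WT, with 1.73 and 0.99 TPM in Oscar-/-. In TPM the Oscar-/- libraries of 2 weeks were both above WT DMM, and Oscar-/- DMM of 4 weeks was below WT sham. Both orders turned in TMM CPM, where the former were at 8.33 and 9.99 against 10.04 in WT DMM, and the latter at 4.18 against 4.14 and 4.01 in the WT sham libraries. Nid2 rose 2.10-fold in WT (log2 1.07 ± 0.25 SE, edgeR adjusted p = 0.0312). Its difference between genotypes was as large as that of Col4a2 but less precise, at -1.01 ± 0.35 (adjusted p = 0.111).

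Hspg2 encodes perlecan, the large proteoglycan that binds growth factors and, in cartilage, lies around the chondrocytes. Its sham and DMM levels at 2 weeks were 8.56 and 20.5 TPM in WT, compared with 12.9 and 16.4 TPM in Oscar-/-. At 4 weeks Hspg2 was at 7.78 and 20.7 TPM in WT, while Oscar-/- gave 12.2 and 9.61 TPM. WT sham libraries were the lowest of the 8 in both units. WT DMM libraries were the highest in TPM, but in TMM CPM Oscar-/- DMM of 2 weeks (76.5) was above WT DMM of 4 weeks (70.3). Hspg2 rose 2.24-fold in WT (log2 1.17 ± 0.16 SE, edgeR adjusted p = 0.00237), with 0.08 ± 0.16 in Oscar-/- (adjusted p = 0.881) and a difference of -1.08 ± 0.23 (adjusted p = 0.0271).

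Collagens XV and XVIII are the multiplexins, which carry glycosaminoglycan chains and sit at the outer face of basement membranes. The C-terminal fragment of collagen XVIII is endostatin, an inhibitor of vessel growth. They held the extremes of the group. Col15a1 went from 4.11 TPM after sham to 13.2 after DMM in WT at 2 weeks, beside 8.70 and 8.22 TPM in Oscar-/-. Its 4-week pairs were 2.81 and 8.50 TPM in WT, with 4.13 and 4.21 TPM in Oscar-/-. The Oscar-/- pairs were close together at each time, while the WT pairs were far apart. Col15a1 rose 2.81-fold in WT (log2 1.49 ± 0.13 SE, edgeR adjusted p = 0.000195), against 0.07 ± 0.13 in Oscar-/- (adjusted p = 0.868). Its difference, -1.42 ± 0.19 (adjusted p = 0.00685), was the largest of the 10.

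Col18a1 had sham and DMM levels of 0.89 and 5.75 TPM in WT at 2 weeks, compared with 1.68 and 3.78 TPM in Oscar-/-. At 4 weeks the pairs were 1.38 and 4.24 TPM in WT, while Oscar-/- gave 1.69 and 2.35 TPM. In both genotypes and at both times the DMM library was above the sham library, and the gap was wider in WT. Col18a1 rose 4.07-fold in WT (log2 2.02 ± 0.17 SE, edgeR adjusted p = 0.000179). Its Oscar-/- difference of 0.88 ± 0.17 was the largest of the 10 in that genotype but did not pass the test over all genes (adjusted p = 0.0664), and DESeq2 called it. The difference between genotypes was -1.14 ± 0.24 (edgeR adjusted p = 0.0271).

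**Figure D2:**
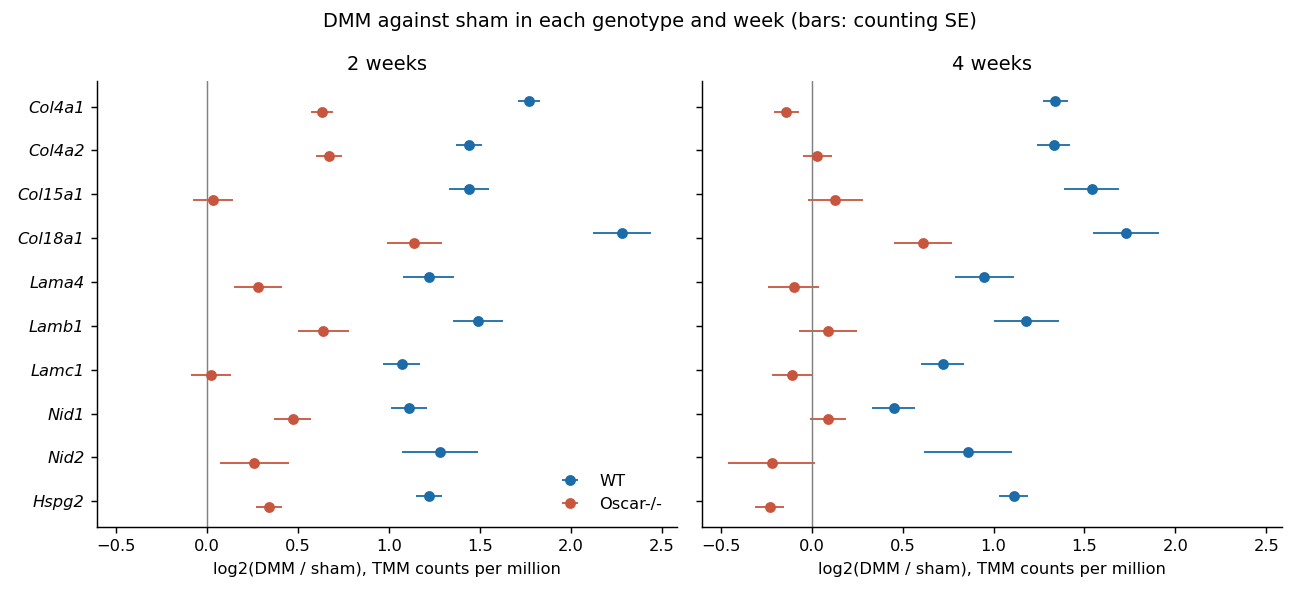
Log2 ratio of DMM to sham in TMM CPM (x axis) for each gene in WT (blue) and Oscar-/- (red) at 2 weeks (left) and 4 weeks (right), with bars of 1 counting SE and 1 library per condition. The WT point lies to the right of the Oscar-/- point for all 10 genes at both times, and at 4 weeks 5 of the Oscar-/- points are below 0.

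Within each week the WT response was larger than the Oscar-/- response for every gene of the group, and the share of all genes with this order is not given here. These ratios come from single libraries and have counting error alone. On TMM CPM, the WT log2 ratios of DMM to sham ranged from 1.07 to 2.28 at 2 weeks and from 0.45 to 1.73 at 4 weeks. The Oscar-/- ratios ranged from 0.02 to 1.14 at 2 weeks, above 0 for all 10 genes, and from -0.23 to 0.61 at 4 weeks, above 0 for 5. The Oscar-/- ratio minus the WT ratio, the study's DIF measure, had medians of -0.98 and -1.10 at the respective times on this scale. On TPM, the unit in which DIF was defined, the medians were -1.10 and -1.57. The TPM scale also moved the bulk of genes: over all tested genes DIF had a median of -0.41 (2 weeks) and -0.22 (4 weeks) in TPM, and of -0.01 and -0.02 in TMM CPM. At 2 weeks all 4 libraries shared a lane, so the values of that week are within a lane.

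In WT, the test called all 10 basement membrane genes higher after DMM (log2 0.79 to 2.02), where 4.36% of the 12538 genes were called higher. Both WT DMM libraries were above both WT sham libraries for all 10 genes in TMM CPM, an order that 20.1% of all genes showed. Both WT DMM libraries were above the 6 others for 6 of the 10 in TPM and for 0 in TMM CPM. How many of all genes had that order is not given here. The median over all genes in this contrast was -0.01. In Oscar-/-, edgeR called 0 of 10 (log2 -0.04 to 0.88, adjusted p from 0.0664 to 0.948) and 0.112% of all genes in either direction. Of the 10, 3 had an unadjusted p under 0.05 (Col18a1, Col4a2 and Lamb1), and DESeq2 called 1. Without the week term no member was called in WT, where 0 of all genes were called in either direction. When single libraries were left out, the members' median in WT ran from 1.05 to 1.47. In Oscar-/-, Col4a1, Col4a2 and Col18a1 were called without its DMM library of 4 weeks, and Col18a1 without either WT sham library.

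The test of the DMM by genotype interaction called 8 of 10 lower, where 3.83% of all genes were called lower, and all 10 had an unadjusted p under 0.05. The estimates ranged from -1.42 to -0.51 with a median of -1.01, against a median of -0.01 over all genes. DMM against sham in WT, the interaction and the sham comparison below share the WT sham libraries and are not separate evidence. The interaction count rested on single libraries: it was 0 without Oscar-/- sham at 2 weeks or without WT DMM at 4 weeks, 1 (Col15a1) without WT DMM at 2 weeks or without Oscar-/- sham at 4 weeks, 4 without WT sham at 2 weeks, 5 without Oscar-/- DMM at 4 weeks, and 9 or 10 without either remaining library. It was also 0 without the week term, where 0 of all genes were called in either direction. With effective lengths as offsets, a setting chosen after seeing the data, it was 2 (Col15a1 and Hspg2).

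**Figure D3:**
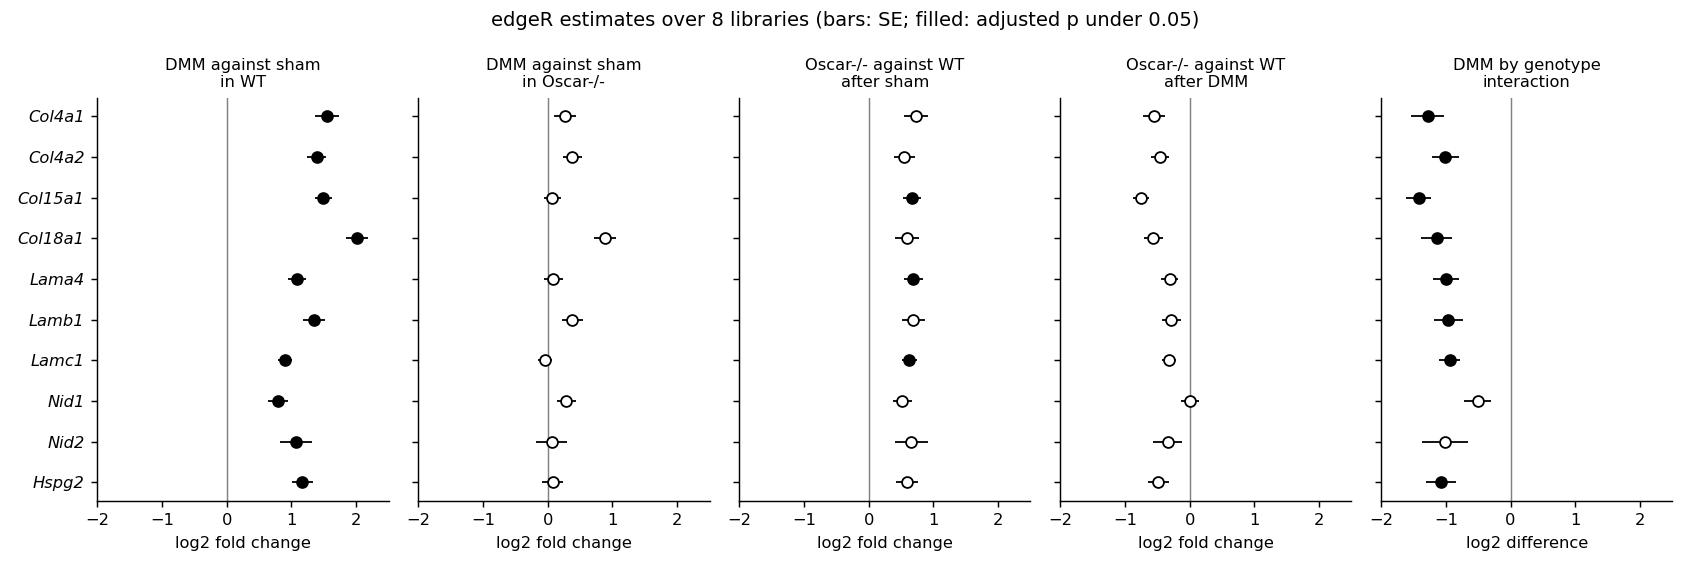
edgeR log2 estimates over the 8 libraries for 5 contrasts (x axis; bars are 1 SE), filled where the adjusted p was under 0.05 and open otherwise. All 10 points are filled for DMM in WT and 8 for the interaction, while DMM in Oscar-/- has none and the sham contrast has 3.

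After sham surgery alone, all 10 genes were higher in Oscar-/- than in WT libraries at both times. The log2 ratios in TMM CPM ranged from 0.59 to 1.01 at 2 weeks and from 0.28 to 0.68 at 4 weeks. Over all tested genes the medians of this ratio were 0.01 and 0.02. edgeR called 3 of 10 higher: Col15a1 (0.67 ± 0.14 SE, adjusted p = 0.0366), Lama4 (0.69 ± 0.15, adjusted p = 0.0404) and Lamc1 (0.63 ± 0.11, adjusted p = 0.0241). Of all genes 1.99% were called higher in this contrast. The other 7 had estimates between 0.52 and 0.73 and edgeR adjusted p between 0.0655 and 0.21. Both WT sham libraries were below the 6 others for 9 of 10 genes in TMM CPM, the exception being Col15a1, an order shown by 7.75% of all genes. The count of 3 fell to 0 without WT sham at 2 weeks, without either Oscar-/- sham library or without either WT DMM library, rose to 9 without WT sham at 4 weeks and to 7 without either Oscar-/- DMM library, and was 0 with limma on TPM and with length offsets.

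After DMM surgery the Oscar-/- values in TPM were lower for 9 of 10 genes at 2 weeks and for all 10 at 4 weeks. In TMM CPM they were lower for 9 at either time, and the share of all genes with this order is not given here. The fitted log2 differences ranged from -0.75 (Col15a1) to 0.01 (Nid1) with a median of -0.40. edgeR called 0 of 10 (adjusted p from 0.109 to 0.985), and 0.0479% of all genes passed in either direction, while 7 of the 10 were under 0.05 before adjustment. No adjusted p came from DESeq2 for these genes. Without Oscar-/- DMM at 2 weeks 3 members were called, and without either WT sham library 1. The size of the interaction thus had parts from both surgeries: in the fit it is the DMM contrast minus the sham contrast, with medians of -0.40 and 0.64. From 2 to 4 weeks all 10 genes fell by 0.31 (Lamc1) to 0.92 (Col15a1) on the log2 scale, where 10.9% of all genes were called lower. With limma on TPM, Col15a1 alone was called between the times, and the count of 10 fell to 5 without WT DMM or Oscar-/- DMM of 2 weeks or WT DMM of 4 weeks, and to 6 without Oscar-/- DMM of 4 weeks.

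The root mean square distance of each gene's centred log2 profile over the 8 libraries from the mean profile of the group was smallest for Lamb1 (0.079) and largest for Col18a1 (0.353) and Col15a1 (0.256). Among 12528 other genes, the 10 with the closest profiles by this distance were Sh3pxd2a (0.10), Palmd (0.111), Ssc5d (0.111), Col1a2 (0.113), Aplnr (0.116), Col5a1 (0.116), Col1a1 (0.121), Rgs5 (0.125), Fscn1 (0.128) and Antxr1 (0.131). Col1a1, Col1a2 and Col5a1 encode fibrillar collagens I and V, Aplnr the apelin receptor known from endothelium, and Rgs5 a regulator of G protein signaling known as a pericyte marker. These distances describe 8 libraries and were not tested.

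Other genes of the basement membrane pathway moved less uniformly. Of 13 genes for collagen modification, export and cross-linking, 6 rose with DMM in WT and 6 were called lower in the interaction. Plod2, a lysyl hydroxylase, had an interaction estimate of -1.01 (edgeR adjusted p = 0.00745), Loxl2, a lysyl oxidase that cross-links collagen IV, -1.24 (adjusted p = 0.00862), Serpinh1, the collagen chaperone HSP47, -0.93 (adjusted p = 0.0249), and Pxdn, the peroxidase that forms the sulfilimine bond of collagen IV, -1.09 (adjusted p = 0.0268). Pxdn ran from 0.98 TPM in WT sham to 3.96 in WT DMM at 2 weeks and from 0.97 to 2.74 at 4 weeks, beside 1.88 and 3.22, then 1.80 and 1.64, in Oscar-/-. The median interaction estimate over the 13 genes was -0.80, with Ppib, Mia3 and Plod3 between -0.13 and 0.11.

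Of 10 enzymes that cut or trim basement membrane components, 4 rose with DMM in WT, and 4 were called lower in the interaction. These were Mmp2 (-1.20, edgeR adjusted p = 0.00438), a gelatinase that cleaves collagen IV, Bmp1 (-0.87, adjusted p = 0.0105), a procollagen and laminin protease, Sulf1 (-1.0, adjusted p = 0.0196), which removes sulfate from heparan sulfate, and Mmp14 (-0.72, adjusted p = 0.0403), the membrane protease that activates MMP2. Mmp2 went from 18.5 to 69.1 TPM in WT at 2 weeks and from 16.9 to 59.4 at 4 weeks, against 27.5 to 46.9 and 30.0 to 33.9 in Oscar-/-. The other gelatinase, Mmp9, far more abundant at 257 to 494 TPM, had a WT difference of 0.22 (edgeR adjusted p = 0.282).

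Of 12 tested receptors, 2 rose in WT and 1, the collagen receptor Ddr2, was called lower in the interaction (-1.22, edgeR adjusted p = 0.0032). Next by p-value were Dag1 (dystroglycan, -0.55, adjusted p = 0.0606), Itga1 (-0.45, adjusted p = 0.0988) and Itga3 (-0.95, adjusted p = 0.0991). Of 11 tested other basement membrane proteins, 3 rose in WT, and the interaction estimates of lowest p were those of Vwa1 (-1.01, adjusted p = 0.0527), Npnt (-1.04, adjusted p = 0.0568), Sparc (-1.04, adjusted p = 0.0583) and Fbln2 (-0.89, edgeR adjusted p = 0.0922). The receptors and associated proteins thus held a smaller share of called genes than the 10 structural genes, and these shares were not tested against each other.

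Endothelial, pericyte, fibroblast and osteoblast markers moved with the group, and macrophage markers did so in part. In bulk tissue, a change in the number of cells of a type and a change in RNA per cell cannot be told apart. Summed over the 10 genes, sham and DMM levels at 2 weeks were 36.6 and 106 TPM in WT, with 66.4 and 80.6 TPM in Oscar-/-. At 4 weeks the sums were 38.6 and 89.0 TPM in WT, compared with 55.1 and 46.6 TPM in Oscar-/-. With WT values first and sham before DMM, the 16 endothelial markers of the 2-week libraries summed to 129, 229, 179 and 185 TPM, and those of the 4-week libraries to 168, 249, 178 and 192. They too were lowest in WT sham and highest in WT DMM. None of the 16 was at 0 in all libraries, and the most abundant were Egfl7 (40.2 to 62.7 TPM), Pecam1 (14.2 to 30.4) and Ramp2 (12.1 to 21.4).

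By edgeR, 11 of 16 endothelial markers rose with DMM in WT and 6 were called lower in the interaction, with medians of 0.70 and -0.48, against 1.26 and -1.01 for the basement membrane genes. The summed level of the 10 genes over that of the endothelial markers was, in the same order, 0.285, 0.462, 0.371 and 0.435 at 2 weeks, and 0.229, 0.358, 0.309 and 0.243 at 4 weeks. This ratio was higher after DMM than after sham in WT at both times and in Oscar-/- at 2 weeks, but lower in Oscar-/- at 4 weeks. What moved the ratio was not tested.

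Of 11 tested pericyte and smooth muscle markers, 4 rose in WT and 4 were called lower in the interaction (medians 0.81 and -0.82). Their sum, again in that order, was 34.0, 66.1, 61.5 and 53.6 TPM at 2 weeks and 38.1, 78.7, 50.1 and 55.2 at 4 weeks, with Rgs5, Tagln and Acta2 the most abundant. Of 12 fibroblast markers, 8 rose in WT and 8 were called lower in the interaction (medians 0.65 and -0.83). Their sum was 508, 937, 870 and 697 TPM at 2 weeks and 455, 824, 659 and 536 at 4 weeks, led by Dcn, Lum and Col3a1. Over the fibroblast sum, the group's sum went from 0.0720 after sham to 0.113 after DMM in WT at 2 weeks and from 0.0847 to 0.108 at 4 weeks. In Oscar-/- it went from 0.0763 to 0.116 and from 0.0836 to 0.0870, so this ratio was higher after DMM in all 4 pairs. Much of the fibroblast sum was Dcn, at 347, 375.5, 614 and 299 TPM at 2 weeks and 274, 376, 409 and 279 at 4 weeks. Dcn differed with DMM by only 0.07 in WT and by -0.69 in Oscar-/-. The order of this ratio thus leans on Dcn and does not hold for fibroblast markers in general. Over the pericyte sum, the group's sum went from 1.08 to 1.60 at 2 weeks and from 1.01 to 1.13 at 4 weeks in WT. In Oscar-/- that ratio went from 1.08 to 1.5 at 2 weeks, but from 1.10 down to 0.845 at 4 weeks.

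Of 13 tested chondrocyte markers, 2 rose in WT (Col11a1 and Col11a2) and 3 were called lower in the interaction, with a median WT difference of -0.22. Their sum ranged from 335 to 946 TPM, was highest in the Oscar-/- sham library of 2 weeks, and did not follow the order of the basement membrane genes. Of 11 osteoblast markers, 4 rose in WT and 6 were called lower in the interaction. With WT first and sham before DMM, they summed to 2891, 4513, 4463 and 3546 TPM at 2 weeks. At 4 weeks the sums were 2451, 4566, 3577 and 3045 TPM. Within each week WT sham was thus lowest and WT DMM highest. Of 8 macrophage and osteoclast markers, 3 rose in WT and 0 were called lower in the interaction. Their sums had the same order within each week. Skeletal muscle, fat and nerve sheath also carry basement membranes. The 8 tested muscle markers had a median WT difference of -1.43, with 2 called lower, and the medians of 8 fat and 3 Schwann cell markers were 0.37 and -0.07. The summed level of the muscle list in WT went from 156 TPM after sham to 41.9 after DMM at 2 weeks, but from 85.3 to 93.5 at 4 weeks. The median interaction estimates of the muscle and fat markers were 0.84 and 0.19. The part of each cell type in the values of the 10 genes was not tested.

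**Figure D4:**
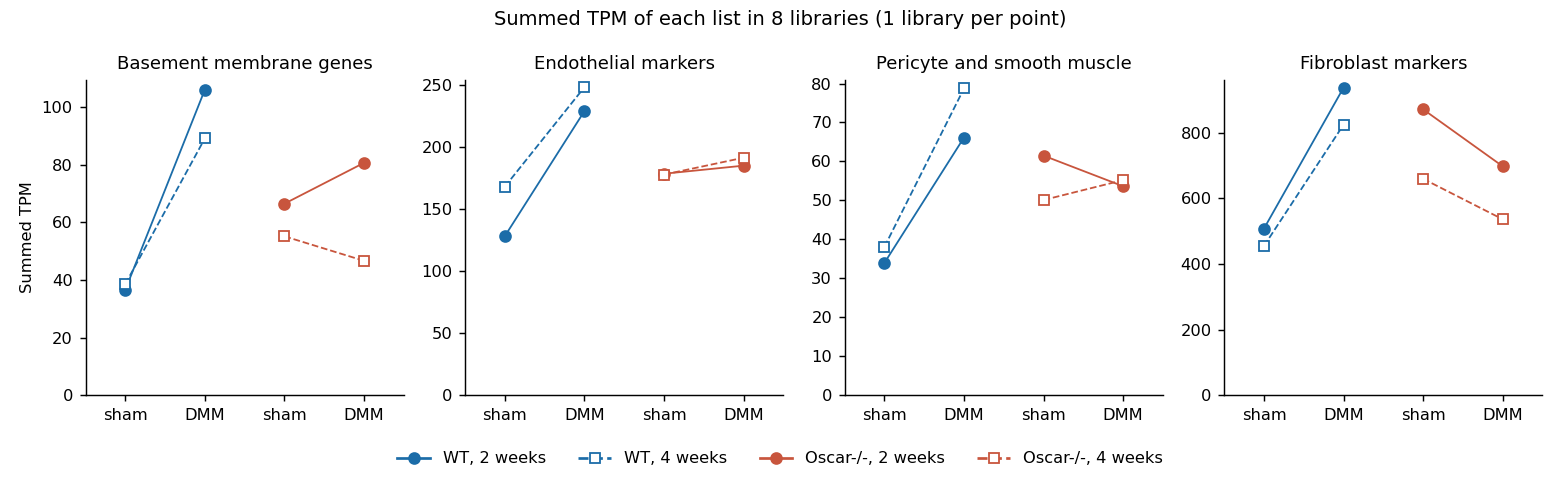
Summed TPM (y axis, from 0) of the 10 basement membrane genes, 16 endothelial, 12 pericyte and smooth muscle, and 12 fibroblast markers after sham and DMM surgery in WT (blue) and Oscar-/- (red) at 2 weeks (filled circles) and 4 weeks (open squares), 1 library per point. In all 4 panels the WT sham points are the lowest 2 of the 8, and both WT DMM points lie above both WT sham points.

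The length to which RSEM weighted the transcripts of a gene differed between libraries and entered its TPM but not its counts. Over the 8 libraries it ran from 1759 to 3084 bases for Lama4, from 3891 to 5784 for Lamb1, from 2542 to 4101 for Nid2 and from 4072 to 5844 for Col4a1, while Col4a2 stayed between 6153 and 6450. For Hspg2 it was 2989 to 4314 bases, although the longest annotated coding transcript has 14187. Part of the weight for Hspg2, Lama4, Lamc1 and Col15a1 thus lay on transcripts shorter than the longest coding one in all 8 libraries. The same held, by a smaller gap, for Col4a1 (at most 5844 of 6615 bases), Col18a1 (5111 of 5595) and Nid2 (4101 of 4876). The TPM levels of these genes are therefore not comparable with those of other genes as if all were full length. For Col4a1 the DMM library had the longer weighted length in both genotypes at both times, which lowers its TPM relative to its counts.

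**Figure D5:**
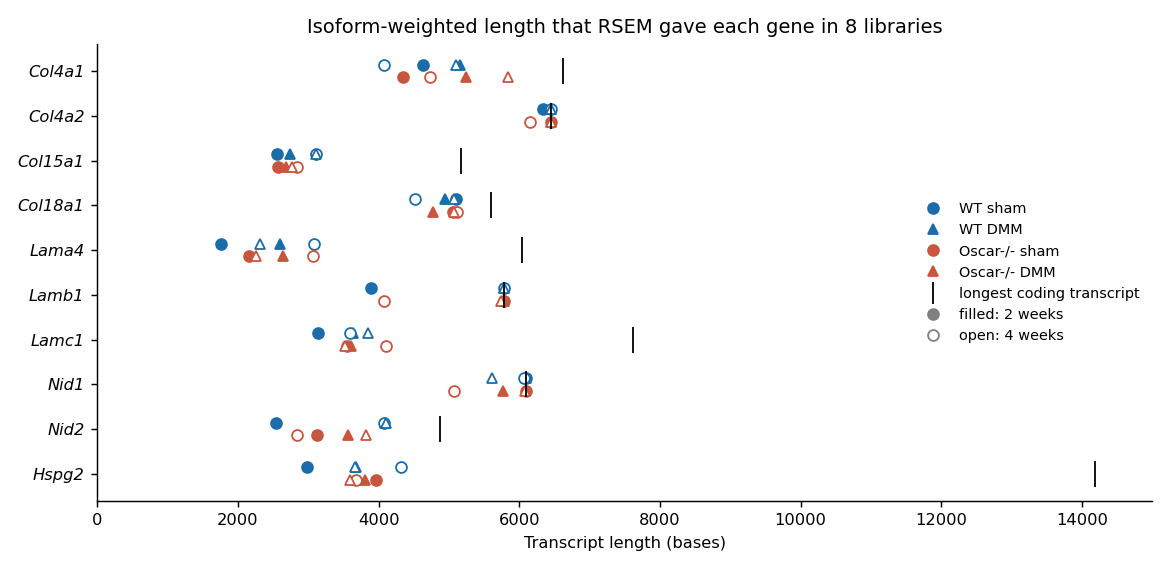
Isoform-weighted transcript length in bases (x axis) for each gene in WT (blue) and Oscar-/- (red) sham (circles) and DMM (triangles) libraries of 2 weeks (filled) and 4 weeks (open), with the longest coding transcript of GENCODE as a black bar. Col4a2 points lie at 6153 to 6450 bases, near the bar, while Hspg2 points lie at 2989 to 4314, far below 14187.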

How the data were processed

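Pooled mouse articular cartilage was profiled by RNA-seq in 8 libraries. Per the study's methods, trimmed reads were mapped to GRCm38 (STAR), and RSEM estimated gene levels on Gencode v22. Versions listed by the submitters were 0.11.8 for FastQC, 2.6.0a for STAR and 1.2.17 for RSEM, beside a human build, although all identifiers are murine. RSEM expected counts as deposited are estimates and were rounded here for count tests. TPM, deposited by the authors as a length-scaled level, has a fixed total per library. Isoform-weighted lengths, other values that the authors deposited, were used for description and as offsets.

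Identifiers were matched to GENCODE M21 on GRCm38 (52403 of 52636). Protein-coding genes with TPM greater than 1 in at least 1 library were tested (12538). edgeR 4.0.16 quasi-likelihood tests with TMM scaling and Benjamini-Hochberg adjustment over all genes used 4 combinations of genotype and surgery plus week, which left 3 residual degrees of freedom, and called an adjusted p under 0.05. The code was tested on simulated data. Log2 ratios between single libraries carry SEs from counting error alone, and a count of 0 allows up to 3 counts.

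Alternatives were RLE scaling, DESeq2 1.42.0, limma 3.58.1 on log2(TPM + 1) and log2(TPM + 0.1), no filter, no week term, the leaving out of each library and, chosen after seeing the data, effective lengths as offsets and lane as a block in place of week. DIF was also computed on TMM CPM and on TPM plus 0.5. The software was R 4.3.3 for the tests, and Python 3.11.15 with pandas 2.3.3, matplotlib 3.10.9 and numpy 2.4.6 for the rest. Values were given for all 10 genes and every expressed other collagen IV and laminin chain. From each other basement membrane list up to 4 genes of lowest interaction p were named, from cell type lists up to 3 of highest mean TPM, and the 10 genes nearest to the mean profile (prior count 2). Ppib, Mia3, Plod3, Mmp9, Col11a1 and Col11a2 were named after their values were seen. The genes and lists were chosen with earlier results of these data known.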

Additional observations from a re-analysis of the deposited data

Results flagged for a closer look

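The DMM response differed between Oscar-/- and WT cartilage for 8 basement membrane genes, by edgeR's test of the interaction over the 8 libraries. That test called 3.83% of all genes lower. The Oscar-/- response minus the WT response was -1.42 on the log2 scale for Col15a1, -1.28 for Col4a1, -1.14 for Col18a1, -1.08 for Hspg2, -1.01 for Col4a2, -1.0 for Lama4, -0.96 for Lamb1 and -0.94 for Lamc1. The difference was below 0 at both 2 and 4 weeks for all 8 in TPM and in TMM CPM, and so it was for the 2 nidogens. The test used the 2 weeks as replicates, so this order is part of the call and not separate support. Groups of 1 library per condition were too small for a check for samples that stand apart.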

How the results depend on the processing

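The interaction called 8 members. It called 4 with limma on log2(TPM + 1), 5 with limma on log2(TPM + 0.1), 0 without the week term, 2 with length offsets (chosen after seeing the data) and 0 to 10 when each library was left out. DMM in WT called 10, with 0 without the week term and 8 to 10 without single libraries. DMM in Oscar-/- called 0, with 1 by DESeq2, 2 without the filter and 0 to 3 without single libraries. The sham comparison called 3, with 1 by DESeq2, 0 by limma at either pseudocount, 9 without the filter, 0 without the week term, 0 with length offsets and 0 to 9 without single libraries. Oscar-/- against WT after DMM called 0, with 5 without the filter and 0 to 3 without single libraries, and DESeq2 gave no adjusted p for any member there. The 4 against 2 week comparison called 10, with 1 by limma at either pseudocount and 5 to 10 without single libraries. The cause of these changes was not tested. Without the week term, 0 of all genes were called in either direction in the interaction, DMM in WT and the sham comparison. Over all genes, the interaction called 480 lower, 283 with DESeq2 and 932 without the filter, with 14 to 1013 without single libraries.

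All 10 members kept their sign in all 16 alternatives for DMM in WT and for the interaction, and in all 15 for the sham comparison. For DMM in Oscar-/- only 4 members did. No called value changed sign. Of 40 alternative DIF values, 15 moved by more than their counting SE, with all DIF below 0. The labels give no replicate numbers, but DMM and sham libraries of a genotype and week shared a lane. Genotype and week give 4 such pairs, but lane does not separate the WT and Oscar-/- pairs of 2 weeks, which were all in lane 5. A fit with lane as a block in place of week, chosen after seeing the data and with 2 residual degrees of freedom, called 8 members in the interaction, 10 for DMM in WT and 0 for DMM in Oscar-/-, and changed no member's call. Nid2, at 59 to 173 counts, is the least precise of the 10.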
